A study of Triticum aestivum with 16 samples.

Results

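The wheat lines SB10 and SB62 are a pair of recombinant inbred lines from a cross between Seri M82 and Babax, and their stems were compared here on 4 of 16 arrays, 2 per line. Each array held RNA from 7 to 8 main-tiller stems of 1 field plot: the peduncle and the penultimate internode, with the leaf sheath still on, taken at flowering about 2 days after heavy rain in an unirrigated trial. The other 12 arrays came from SB165, SB169, SB109, SB69, SB57 and SB3, with 2 field replicates each, and served for the shared spread and for reference levels. No line was treated, neither parent was among the samples, and each line is 1 inbred genotype of that cross. The pair was chosen by its log2 array levels: of all 28 pairs of the 8 lines, its stems had the most differing probe sets, and those probe sets were selected on the same levels. The contrast between them is therefore a description, and no p-value is given for it.

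A recombinant inbred line carries a fixed mosaic of both parental genomes, so at a locus where the parents differ each line holds the version of 1 parent. Wheat stems around flowering are still completing the elongation and wall thickening of the upper internodes, and they store water-soluble carbohydrate, mostly fructan, which is later moved to the grain. Tubulins form the microtubules that guide wall deposition, histones H2A and H2B are made mainly when DNA is copied, and caffeic acid O-methyltransferase (COMT1) acts in lignin synthesis.

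Levels are log2 of deposited array intensities, and a difference is SB10 minus SB62 on that scale. A probe set is a group of short probes for 1 transcript, although those with identifiers ending in x, s or a can read several. Median array levels lay between 4.56 and 4.64 over the 16 arrays, and replicate arrays correlated at 0.993 in both SB10 and SB62, with the lowest value, 0.984, in SB3. The line means of SB10 and SB62 correlated at 0.981 over 61115 probe sets. Of 1273 probe sets paired with a gene, 1272 had that gene in the RefSeq gene table, and 200 of them, for 102 genes, carried a gene symbol or synonym. The other 59842 probe sets are known here by identifier alone. No leaf-sheath marker and no cellulose synthase marker sought as a tissue check was among the named genes. Photosynthesis genes had a median of 12.63 to 12.94 per array over 8 probe sets, although the dimmest of them averaged 2.67, and 17 probe sets for grain storage proteins had medians of 2.74 to 3.18, although the brightest of them averaged 9.46. The 4 probe sets for raftin, an anther protein, had medians of 3.46 to 3.94. By limma 0 of the storage and raftin probe sets was called between SB10 and SB62. An unadjusted p under 0.05 was found at 5 and 0 of them, against 15.98% of all probe sets. These shares use the arrays that chose the pair and are a description. Of the 17 storage probe sets 15 were lower in SB10 and 2 higher, with a median difference of -0.19, against -0.07 over all probe sets.

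SB10 stems and SB62 stems differed at 1835 of 61115 probe sets (3.00%), called at an adjusted p under 0.05 in a limma fit over all lines. SB10 had the higher level at 1393 of these (2.28%), and SB62 had it at 442 (0.723%). The members higher in SB10 had a median difference of 1.23 log2 units, and those higher in SB62 one of 0.73 in size, against a median size of 0.16 over all probe sets. The signed median over all probe sets was -0.07. The imbalance was larger from 1 log2 unit up. SB10 was higher at 59.5% of members below 1 log2 unit and at 88.7% to 93.8% in each size step above. Below 1 log2 unit SB10 was the higher line at 489 members and SB62 at 333. Between 1 and 2 the counts were 600 and 76, and between 2 and 3 they were 181 and 23. They were 76 and 5 between 3 and 4, and 47 and 5 at 4 or more. The last probe set called had a difference of -0.60 and the first one left out had a difference of 1.78, so the call depends on spread as much as on size. Among the other 27 pairs of lines, which share arrays with this one, the count lay between 248 and 1722, with a middle value of 512. The count for SB10 and SB62 leaned on all 4 arrays: it was 872 without SB10 replicate 1, 792 without SB10 replicate 2, 1150 without SB62 replicate 1 and 586 without SB62 replicate 2. In these bulk samples fewer cells of a type and less RNA per cell cannot be told apart.

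The probe set with the largest difference, Ta.23013.3.S1_s_at, read 12.14 and 12.15 in the SB10 replicates and 5.21 and 6.17 in the SB62 replicates. SB10 was far above SB62, with no overlap, by 6.45 ± 0.72 log2 units (SE, n = 2 per line), or 87.7-fold. SB165, SB169 and SB3 lay with SB10, from 11.71 to 12.36, and SB109 and SB57 lay with SB62, from 5.53 to 6.27. SB69 was split, with 9.86 in replicate 1 and 6.16 in replicate 2, which is why this probe set was not counted as having only 2 levels. Ta.10201.3.S1_at read 10.05 and 10.21 in SB10 against 4.35 and 3.21 in SB62, a difference of 6.35 ± 0.72 or 81.7-fold. Here the other lines were spread over the whole interval, from 4.28 in SB169 replicate 1 to 10.78 in SB3 replicate 2.

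The largest differences toward SB62 had another form. Ta.22426.2.S1_at read 2.28 and 2.31 in SB10 and 8.32 and 8.33 in SB62, a difference of -6.03 ± 0.21 or 65.1-fold. SB169 was as low as SB10, at 2.30 and 2.72, and the 5 remaining lines were as high as SB62, from 7.93 to 8.45. Ta.1112.1.S1_at read 2.66 and 2.39 in SB10 and 8.09 and 7.63 in SB62, a difference of -5.34 ± 0.49 or 40.4-fold. All other lines were low with SB10, at 2.02 to 2.88, except SB165 replicate 2 at 4.99.

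**Figure D1:**
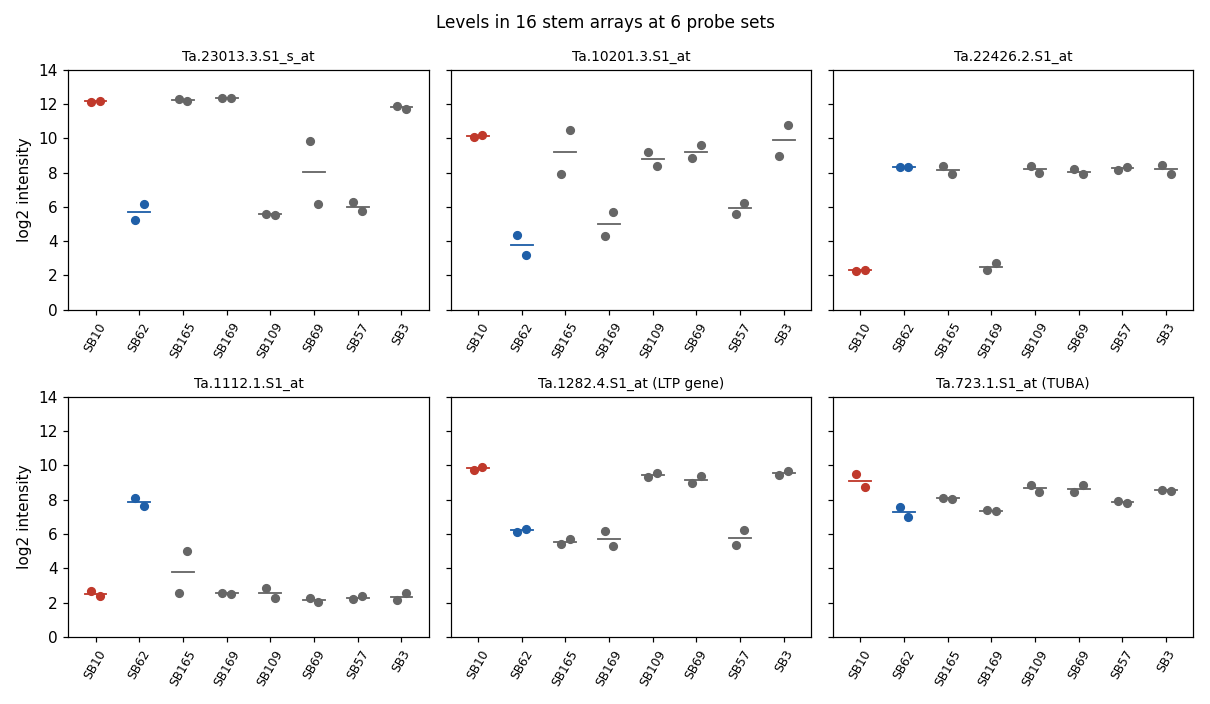
Log2 intensity in all 16 stem arrays at 6 probe sets, by line, with 1 point per array and a bar at the mean of the 2 field replicates (SB10 red, SB62 blue, the other lines grey). Ta.22426.2.S1_at has 2 levels, with SB10 and SB169 near 2.30 and 2.51, while Ta.10201.3.S1_at takes values across the range from SB62 to SB10.

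Each field replicate was also read on its own, although both had entered the choice of the pair, so the following shares are a description and no independent support. In field replicate 1 alone, 1320 probe sets lay at least 1 log2 unit apart between SB10 and SB62, and 1287 of them (97.5%) had the same sign in replicate 2, where the median size was 1.67 against 1.49 where they were chosen. In replicate 2 alone, 2086 probe sets lay that far apart, and 2033 of them (97.5%) had the same sign in replicate 1, where the median size fell from 1.46 to 1.01. Over all probe sets 61.2% had the same sign in both. At 2 log2 units the shares were 355 of 359 and 558 of 559. Replicate 2 thus showed more large differences.

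**Figure D2:**
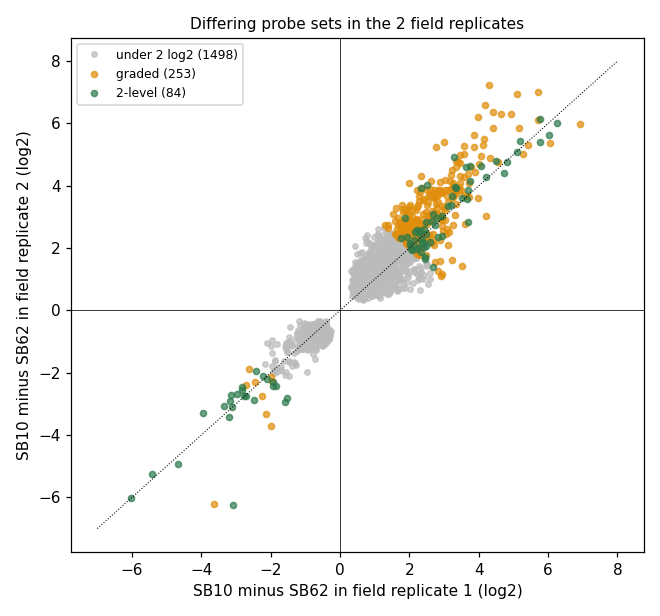
SB10 minus SB62 (log2) in field replicate 1 (x axis) and field replicate 2 (y axis) for the 1835 probe sets called, with the dotted line marking equal differences. The 84 2-level probe sets (green) lie near the line, and many of the 253 graded ones (orange) that are higher in SB10 lie above it.

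To ask which of the pair departs from the rest, the median of the other 6 line means was placed on a scale where SB62 is 0 and SB10 is 1. In most members neither line stood apart by this measure. The median of the other lines lay between the pair, from 0.25 to 0.75, at 1427 members (77.8%). SB10 stood apart, with that median within 0.25 of SB62, at 221 members (12.0%), and SB62 stood apart at 175 (9.54%). In the remaining 12 the median lay beyond the pair. Since only the median was placed, single lines could still lie with the line that stood apart. The median position was 0.51 for members higher in SB10 and 0.48 for those higher in SB62. Over the other 27 pairs, which share arrays, the share in between ran from 32.5% to 72.0% with a median of 53.9%. A median in between can also come from 3 lines at each end, which these counts do not separate. Both ends of the scale were selected, since pair and members were chosen for their difference, and this choice favours positions in between. SB62 and SB3, with the next highest count of differing probe sets, 1722, had the share of 72.0%. SB109 and SB57, with the lowest count, 248, had 50.8%. How much of the share here comes from that choice was not tested, so it does not show which line departs from the rest. Single lines were placed, further below, only for differences of at least 2 log2 units.

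By direction, SB10 stood apart at 137 of 1393 members higher in SB10 and at 84 of 442 members higher in SB62, and SB62 stood apart at 122 and 53 of them. Among the 47 members at least 4 log2 units higher in SB10, SB62 stood apart at 15 and SB10 at 4. Among the 5 at least that far higher in SB62, SB10 stood apart at 4. SB10 and SB62 were also each set against the average of the other 6. SB10 differed from that mean at 772 of all probe sets (1.26%) and SB62 at 747 (1.22%). Of the members, 347 were called for SB10 alone, 286 for SB62 alone, 164 for both and 1038 for neither, and 162 of the 164 lay on opposite sides of the mean. These counts use the arrays that chose the members and nothing is read from their size. The count for SB10 apart was 442 without SB165 replicate 2, 396 without SB3 replicate 2, 106 without SB62 replicate 1 and 96 without SB62 replicate 2. The count for SB62 apart was 63 without SB10 replicate 1, 79 without SB10 replicate 2 and 76 without SB62 replicate 2. The count in between was 640 and 531 without SB10 replicates 1 and 2, and 788 and 411 without SB62 replicates 1 and 2.

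**Figure D3:**
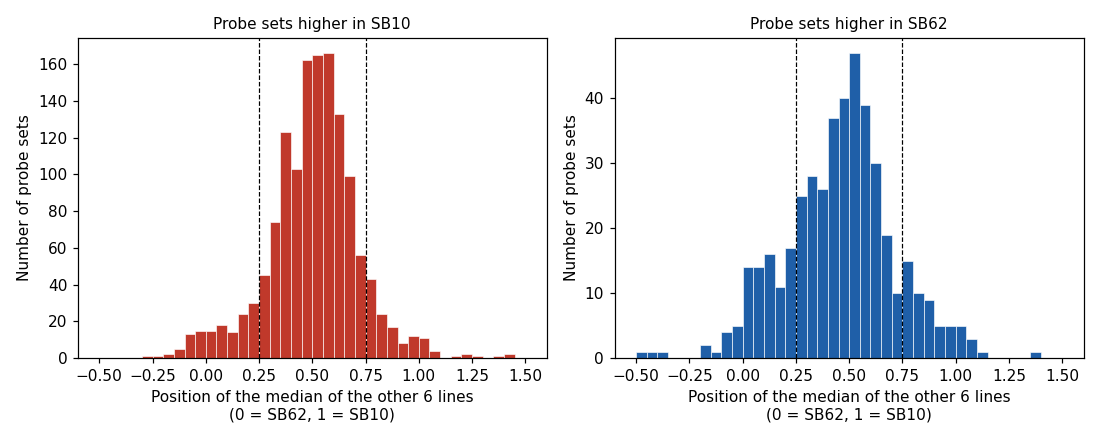
Number of probe sets by the position of the median of the other 6 lines on the scale from SB62 (0) to SB10 (1), for members higher in SB10 (left) and higher in SB62 (right), in bins of 0.05, with dashed lines at 0.25 and 0.75. Both distributions peak near the middle, and 3 members higher in SB10 lie beyond the plotted range.

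Differences of at least 2 log2 units, 337 in all, were then divided by the form of the pattern. A probe set was called 2-level where all 6 other lines lay within 0.25 of SB10 or of SB62, and on-off where the lower of the pair also sat at or below a log2 level of 3.28, the lower quartile of probe set means. All others were called graded. There were 84 2-level probe sets, 19 of them on-off, and 253 graded ones. The directions split unevenly: of 304 probe sets higher in SB10, 244 were graded and 60 were 2-level, whereas of 33 higher in SB62, 9 were graded and 24 were 2-level. On-off differences numbered 13 higher in SB10 and 6 higher in SB62. Over the other 27 pairs, the 2-level share of such differences ran from 24.2% to 73.0% with a median of 53.3%, and here it was 24.9%. The graded count was 167 without SB10 replicate 2 and 103 without SB62 replicate 2.

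Sizes hardly set the forms apart. The median size was 2.75 log2 units in the 2-level probe sets and 2.74 in the graded ones. The lower of the pair had a median level of 3.94 in the 2-level probe sets and 4.76 in the graded ones, and 65 of the 84 2-level probe sets had a lower level above the dim limit. In the 19 on-off probe sets the lower of the pair ranged from 2.22 to 3.26 and the higher from 4.72 to 8.32.

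At the 2-level probe sets the other lines took sides in 25 ways. The most common, at 25 probe sets, placed SB165, SB169 and SB3 at the level of SB10, and all 25 were higher in SB10. SB3 alone joined SB10 at 8 probe sets, and SB165, SB109, SB69 and SB3 joined it at 7. Exactly 3 lines joined SB10 at 42 of the 84 probe sets. Of the 84, SB10 was alone at 2 and SB62 at 1, although by the median SB10 stood apart at 29 and SB62 at 13. Line by line, SB3 shared the level of SB10 at 64 probe sets, SB165 at 55, SB169 at 39, SB69 at 26, SB109 at 22 and SB57 at 8.

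At the graded probe sets the order of lines was another. SB3 was nearer SB10 at 234 of 253, SB165 at 225, SB109 at 176 and SB69 at 175, while SB169 was nearer SB10 at 24 and SB57 at 14. SB169 thus sat with SB62 at most graded probe sets and with SB10 at 39 of the 84 2-level ones. At 160 of the 253, at least 3 other lines lay in the middle band. These counts follow from how the forms were defined and carry no test.

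**Figure D4:**
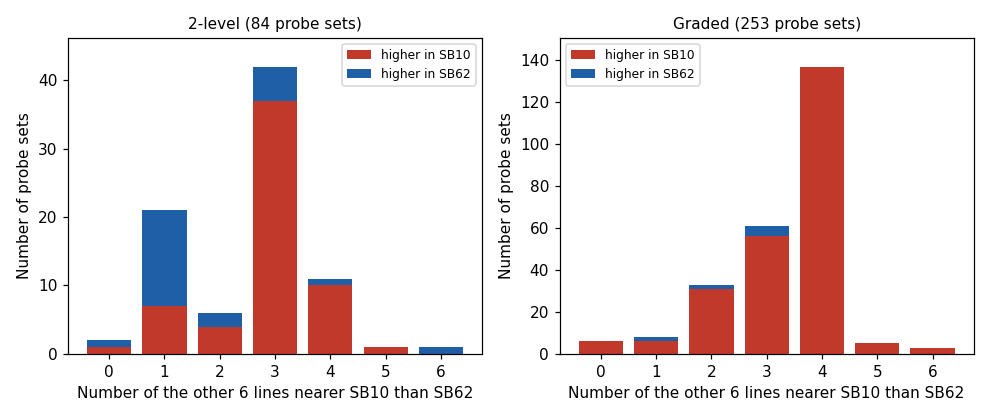
Number of probe sets by how many of the other 6 lines lay nearer SB10 than SB62, for the 84 2-level and the 253 graded probe sets, stacked by direction (red higher in SB10, blue higher in SB62). The 2-level bars peak at 3 lines with 42 probe sets, and the graded bars peak at 4 lines with 137.

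Single arrays also differed between the forms, a contrast that the definitions partly fix. A line whose 2 plots lie far apart can have a mean in the middle band, which makes the probe set graded. Over the 244 graded probe sets higher in SB10, the median position was 0.40 in SB165 replicate 1 and 1.01 in SB165 replicate 2. It was 0.64 and 1.12 in the SB3 replicates, 0.76 and 0.53 in SB109, 0.49 and 0.71 in SB69, 0.08 and 0.21 in SB169 and 0.12 and 0.18 in SB57. SB165 and SB3 thus had a replicate 2 at the level of SB10 and a replicate 1 between the pair. The replicates of SB165 were at least 1 log2 unit apart at 194 of the 253 graded probe sets (76.7%) and those of SB3 at 149 (58.9%), against 1.57% and 1.77% of all probe sets. At the 2-level probe sets these counts were 9 of 84 and 4 of 84. Such a gap was found in SB109 at 57 of the 253, in SB10 at 29, in SB62 and SB69 at 25 each, in SB169 at 18 and in SB57 at 5. Over all probe sets it was found at 0.53% in SB10 and at 0.18% in SB62, so in these lines too it was more frequent at graded probe sets. The part of plot differences in the graded pattern was not tested.

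**Figure D5:**
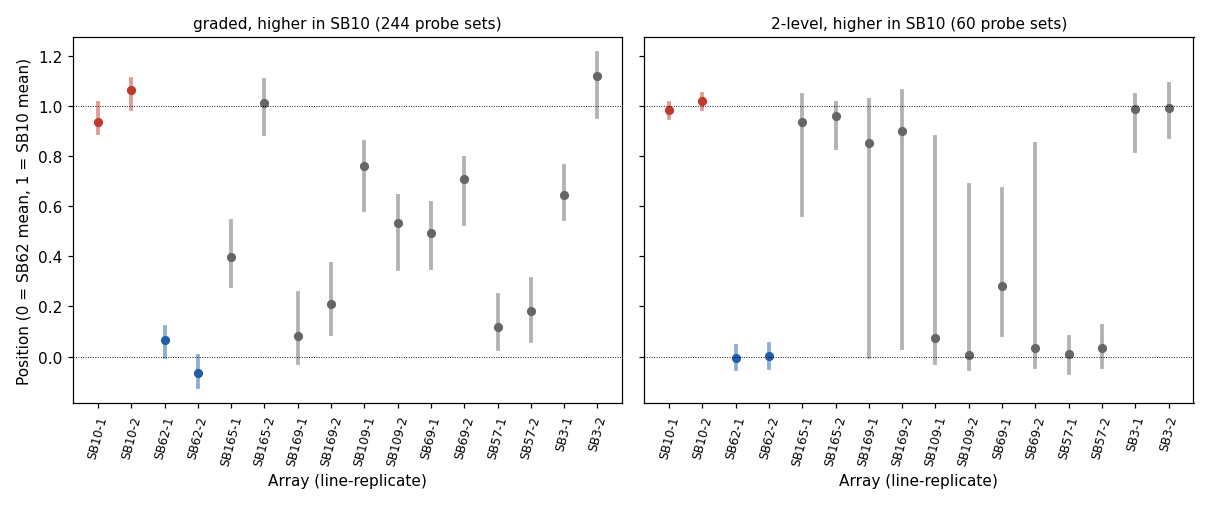
Position of each array on the scale from the SB62 mean (0) to the SB10 mean (1), as the median (point) and the quartiles (bar) over probe sets higher in SB10, for 244 graded (left) and 60 2-level (right) probe sets. On the left SB165 moves from 0.40 to 1.01 between its replicates, and on the right both SB165 arrays lie near 1.

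Part of the difference between SB10 and SB62 ran along an axis of variation among the other 12 arrays. The first principal component of the other 12 arrays, over the 30557 brighter probe sets, held 37.8% of their variance, and 59.4% of the squared difference between SB10 and SB62 lay along it. Scores were 25.7 and 43.6 in the SB10 replicates and -30.2 and -35.4 in the SB62 replicates. SB3 scored 9.23 and 66.0 and SB165 scored -15.0 and 41.8, so plots of these lines lay nearly as far apart as SB10 and SB62. SB169 and SB57 scored between -35.5 and -24.5 in both replicates. The median share of a probe set's difference along the axis was 0.67 in the 226 graded probe sets on it and 0.28 in the 68 2-level ones. At least 0.5 of the difference lay along it at 175 of the 226 and at 22 of the 68. The definitions of the forms partly fix this contrast, because they use the same 12 arrays. Since this axis was built from arrays that include those plot gaps, line and plot cannot be told apart along it.

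The other 6 lines were tested among themselves with no array of the pair, although the spread of these 12 arrays had also entered the choice of the members. In a limma F-test among these lines on their 12 arrays, 523 of the 1835 members (28.5%) were called at an adjusted p under 0.05, against 2.12% of all probe sets and 774 of the 59280 probe sets that were not members. The share was 374 of 1393 among members higher in SB10 and 149 of 442 among those higher in SB62. Members were also brighter, with a median level of 6.41 in the other 12 arrays against 4.61 over all probe sets, and the part of brightness was not tested. Their median within-line SD in those arrays was 0.229 log2 units, against 0.155 in probe sets that were not members, and the part of the shared spread in the count was not tested. With the 1835 members held fixed, the count in the F-test was lowest, 379, without SB69 replicate 2. Leaving out SB165 replicate 1 gave 801 (1858 of all probe sets called), and leaving out SB3 replicate 1 gave 724 (2243 called). The test called 78 of the 84 2-level probe sets and 83 of the 253 graded ones, a contrast that the definitions partly fix because they use the same line means. Ta.22426.2.S1_at and Ta.23013.3.S1_s_at differed among the other lines (adjusted p in limma at most 0.00197 in each alternative that tested them). Ta.10201.3.S1_at had an adjusted p of 0.00726 in limma, which rose to 0.0517 without SB169 replicate 1. Ta.1112.1.S1_at, where SB62 stood apart, had an adjusted p of 0.50 in limma, and 0.000192 without SB165 replicate 1.

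Of the 1273 probe sets paired with a gene, SB10 was higher at 74 (5.81%) and SB62 at 12 (0.943%), for 68 genes. Of these 86 probe sets, 23 were graded and 2 were 2-level, and SB10 stood apart at 13 and SB62 at 4. The 12 paired probe sets highest in SB10 ran from 2.57 to 6.13 log2 units, and the 12 highest in SB62 ran from 0.51 to 1.06 in size. The largest, for LOC543445, read 9.66 and 9.57 in SB10 against 3.41 and 3.56 in SB62, a 70.0-fold difference. SB165, SB169 and SB3 were high with SB10, at 8.55 to 9.70, while SB109, SB69 and SB57 were low, at 3.41 to 5.61. For LOC543111 the SB10 replicates read 8.72 and 9.09, both SB62 replicates 6.33 and 6.34, a 5.93-fold difference. There SB69 was high, at 8.58 and 8.62, SB165 was lower, at 8.16 and 7.80, and the other 4 lines were at 5.80 to 6.34. The SB165 mean of 7.98 fell in the middle band, so this probe set was counted as graded. The remaining 10 of the 12 comprised LTP3, described next, and 9 further graded probe sets. At these 9 the median of the other lines lay in between, and LOC606356 was among them with both of its probe sets. Plots of 1 line could lie far apart there. At LOC780572, with the widest gaps, SB165 read 7.23 and 10.33 and SB3 read 9.12 and 11.65. In the F-test among the other lines only LOC543313 was called (adjusted p 0.0105 in limma), and the rest had 0.0637 to 0.174. Several of the rest were called with the replicate block. The 12 toward SB62 were all under 2 log2 units, the largest being LOC100037541, at 8.92 and 8.63 in SB10 against 9.97 and 9.70 in SB62.

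Of the 200 probe sets whose gene has a symbol or synonym, 8 were called, for 7 genes. This is near the 3.00% called over all probe sets, so nothing is read from the count. The 8 are given here by role. LTP3, a lipid transfer protein of the cell surface, read 9.75 and 9.90 in SB10 and 6.10 and 6.31 in SB62 at Ta.1282.4.S1_at, 3.62 ± 0.27 log2 units or 12.3-fold apart. SB109, SB69 and SB3 were high with SB10, at 8.97 to 9.67, and SB165, SB169 and SB57 were low, at 5.32 to 6.22. A brighter LTP3 probe set, Ta.1282.1.S1_x_at, was not called and differed by -0.14, so the probe sets annotated to this gene disagreed, and near-identical family members may be read by either. The lines also differed at the first of them without SB10 and SB62 (adjusted p at most 1.43e-05 in limma in 19 alternatives).

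Of 10 tubulin probe sets, 2 were called, both higher in SB10. TUBA, an alpha-tubulin, read 9.51 and 8.72 in SB10 against 7.58 and 7.00 in SB62 at Ta.723.1.S1_at, a difference of 1.83 ± 0.24 or 3.55-fold. SB109, SB69 and SB3 lay near SB10 at 8.43 to 8.88, and SB169 lay with SB62 at 7.32 and 7.41. The tubb2 probe set, for a beta-tubulin, read 13.03 and 13.18 in SB10 against 12.11 and 12.14 in SB62, a difference of 0.98 ± 0.18. Both arrays of SB10 exceeded both arrays of SB62 at all 10 tubulin probe sets, against 17.6% of all probe sets. The 10 stand for 6 genes, with several for Tubb5 alone, and these arrays had chosen the pair. The contrast is therefore a description and no support. The median difference of the 10 was 0.70, against -0.07 over all probe sets. The other 8 were not called. These 8 differed by 0.23 to 0.90. Over the 10 the array median was 10.22 and 10.45 in SB10 and 9.49 and 9.57 in SB62. Plots of 1 line also lay apart, at 9.53 and 10.20 in SB165 and at 9.67 and 10.29 in SB3. Plots lay closer in SB69, at 9.69 and 10.01, and in SB109, at 9.79 and 9.66. SB169 and SB57 stayed at 9.29 to 9.37. The part of plot differences was not tested. The other lines differed at the TUBA probe set (adjusted p 0.00241 in limma, at most 0.0319 in 19 alternatives) and were not called at tubb2 (adjusted p 0.21 in limma). At tubb2 the value was 0.0221 without SB165 replicate 1 and 0.0225 without SB165 replicate 2. The tubulin, histone and photosynthesis groups, and the others beyond the carbohydrate and wall lists, were assembled after the values of some members had been seen.

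Histones showed large differences that did not pass the threshold. The 18 probe sets for histones H2A and H2B, from 5 genes, had a median difference of 1.55, and limma called 0 of them. An unadjusted p under 0.05 in limma was found at 10 of the 18, against 15.98% of all probe sets. Both shares use the arrays that chose the pair, and several of the 18 read the same gene. They are a description and no support for a difference in histones. For H2A-9 the 6 probe sets differed by 1.59 to 3.22. Plots of 1 line differed widely: the median over the 18 was 5.45 in SB10 replicate 1 and 7.06 in SB10 replicate 2, against 4.42 and 4.25 in SB62. SB3 read 4.73 and 7.67 in the same median and SB165 read 4.44 and 6.31, and SB57 and SB169 stayed at 3.96 to 4.23. SB109 read 5.70 and 5.68, alike in both plots and above SB10 replicate 1, and SB69 read 4.51 and 4.57. The arrays high in histones were those with the highest axis scores, SB3 replicate 2, SB10 replicate 2 and SB165 replicate 2.

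Of 4 probe sets for genes of methyl-group transfer, 2 were called, both higher in SB10, and the median difference of the 4 was 0.65, against -0.07 over all probe sets. S-adenosylhomocysteine hydrolase (SAHH), which clears the by-product of methylation reactions, read 13.02 and 13.16 in SB10 against 12.38 and 11.95 in SB62 at Ta.1258.2.S1_x_at, a difference of 0.93 ± 0.20. The other SAHH probe set differed by 0.62 and PEAMT1, a methyltransferase of choline synthesis, by -0.05, and neither was called. COMT1 read 12.98 and 13.04 against 12.39 and 12.28, a difference of 0.67 ± 0.15, and was the 1 gene found of 6 sought for the secondary wall. The other lines were not called at either probe set (adjusted p 0.20 and 0.45 in limma), and at SAHH the value was 0.0331 without SB165 replicate 1. XIP-I, a xylanase inhibitor of the defence against fungal enzymes, was higher in SB10 at both of its probe sets. At Ta.1200.1.S1_x_at it read 6.85 and 6.78 in SB10 against 5.62 and 5.24 in SB62, a difference of 1.38 ± 0.18, and at Ta.1200.1.S1_at the difference was 1.06 ± 0.17. SB165 and SB3 lay near SB10 at both, and the other lines differed (adjusted p 0.00212 and 0.00519 in limma).

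Of the named genes in the fructan, sucrose and starch lists, none was called by limma, while control probe sets of the array for sucrose synthase and glucose-6-phosphate dehydrogenase were called in part. Fructan exohydrolases, which break fructan down, had 4 probe sets for 1-FEH and 6-FEH with a median difference of -0.13, and limma called 0 of them, with 0 at an unadjusted p under 0.05. The 1-FEH probe set was bright, with SB10 at 11.05 and 11.10 and SB62 at 11.23 and 11.30. The 1 probe set of the sucrose list, IVR1, an invertase, differed by -0.35 at a dim level, from 2.65 to 3.40. AGP-S and GBSS of starch synthesis had a median difference of -0.07, and neither these nor IVR1 had an unadjusted p under 0.05. No probe set was named for fructan synthesis or sugar transport. Sucrose synthase, read by control probe sets, splits sucrose for use in the sink. Its middle probe set read 10.38 and 10.17 in SB10 against 9.77 and 9.65 in SB62, a difference of 0.56 ± 0.14 that was called, and its end probe sets differed by 0.41 and 0.52 without a call. Glucose-6-phosphate dehydrogenase, which opens the branch of sugar breakdown that supplies NADPH, differed by 0.78 to 0.89 at 3 probe sets, 1 of them called.

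The photosynthesis genes differed little. The 8 probe sets for PsbO, PsbP, petC, PRK and FBP had differences of -0.31 to 0.03, and limma called 0 of them, with 0 at an unadjusted p under 0.05. The large subunit of Rubisco, rbcl, was higher in SB62 at 1 of 28 probe sets, with 5.11 and 5.18 in SB10 against 5.58 and 6.23 in SB62, a difference of -0.76 ± 0.18, and the median over all 28 was -0.08. Gibberellin 20-oxidases, which make a growth hormone of elongating stems, had 4 probe sets with differences of -0.09 to 0.36, of which limma called 0, with 1 at an unadjusted p under 0.05. As a check on RNA, the 3-prime level minus the 5-prime level was taken within each array. For ubiquitin it was -1.36 and -1.30 in SB10 and -1.11 and -1.12 in SB62, all within the range of the other arrays, -1.42 to -0.96. For gapdh it was -2.96 and -3.02 in SB10, below the range of -2.88 to -2.35 in the other lines. The 3-prime gapdh probe set was dim in SB10, at 3.04 and 3.24, below the dim limit of 3.28. For sucrose synthase the value was 4.30 and 4.15 in SB10 and 4.09 and 4.59 in SB62, within the range of 4.03 to 4.93. The part of RNA quality in the differences was not tested.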

How the data were processed

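The values are the authors' deposited array intensities, 1 per probe set and array, and the submitters' processing notes name GCOS and RMA without versions. RMA usually gives log2 values, but the deposited ones ran from 3.08 to 31223 and were taken as linear, with no source seen here for that step. RMA pulls arrays to a common distribution and compresses low values, and probe values were not used, so a sequence difference under a probe cannot be told apart from a difference in RNA. Intensities were raised to a floor of 1 and put on the log2 scale. Of 61289 probe sets, 110 control and 64 reporter probe sets were left out of the 61115 tested. The 25 control probe sets with a wheat gene name were called in a second fit that added them to these, with p-values adjusted over 61140. limma 3.58.1 (R 4.3.3) fitted 1 mean per line over 16 arrays with an intensity trend, and p-values were adjusted by Benjamini-Hochberg over all of them. The F-test used the 12 arrays of the other 6 lines alone, although all arrays shared 1 normalization. The fit was tested on simulated data. Replicates were separate field plots, per the labels. Arrays have no read depth, and 2 per line limit the precision. Probe sets were named through the platform annotation of the array and the RefSeq table, which can be old.

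Named probe sets were the 2 largest differences each way by identifier, the 12 largest each way among those paired with a gene, carbohydrate, wall and tissue lists, gene controls, and all called genes with a symbol. The pair, its members and these lists were chosen with earlier results of these data known. Python 3.11.15 made the classes and plots. Alternatives changed the normalization, centring, dim filter, trend, weights, probe set type, thresholds, bands, replicate block and arrays.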

Additional observations from a re-analysis of the deposited data

How the results depend on the processing

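Of the 34 named probe sets, 14 to 34 were called when 1 array was left out, and no sign turned, which their separate arrays fix in advance. With 1 array left out the count of differing probe sets ran from 586 to 2559, the 2-level count from 61 to 89, the on-off count from 15 to 21, the graded count from 103 to 331, SB10 apart from 96 to 442, SB62 apart from 63 to 249, in between from 411 to 1992, and members called among the other 6 lines from 353 to 948. Lone arrays were assumed to vary like the other lines. At an adjusted p under 0.01 there were 787 differing probe sets, with SB10 apart at 113, SB62 apart at 82, in between 587, graded 168 and called among the other lines 289. Without identifiers ending in x, s or a, which mark probes that can read several transcripts, the counts were 1183 differing, 903 in between, 11 on-off and 129 graded. The 4 arrays of the pair alone gave 3380. A dim filter gave 48 on-off, since its quartile was taken over brighter probe sets, and a dim limit at the median gave 55. A band of 0.2 gave 115 for SB62 apart, a band of 0.33 gave 347 for SB10 and 304 for SB62, and the mean of the other lines gave 111 for SB62. From 1 log2 unit up there were 142 2-level, 37 on-off and 871 graded probe sets. With SB165 and SB3 left out, a choice made after seeing the data, there were 3706 differing probe sets, 1292 with SB10 apart, 2197 in between and 1216 called among the lines left. Between field replicates, the share of the same sign at 2 log2 units was 98.9% and 99.8%, and 98.4% with the dim filter for those chosen in replicate 2. The replicate block gave 2236 differing probe sets, 1819 of them shared, but the field replicate numbers were not taken as pairs: deviations correlated over 0.1 in 14 of 28 pairs of lines and at -0.07 for SB10 and SB62. Where the cause of a change is not given here, the cause was not tested.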

Other observations

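The 1835 members came from 1515 clusters, and of the 237 clusters with more than 1 member, 235 held members of 1 direction. A further 1125 probe sets that were not called share a cluster with a member, and 822 of these (73.1%) had the sign of the member. Of all members 75.9% were higher in SB10, so many clusters would hold 1 direction anyway, and no reference was computed for these shares. Identifiers ending in x, whose probes can read several transcripts, made up 30.8% of the graded probe sets and 15.5% of the 2-level ones. Of all 61115 probe sets, 6766 have this ending. Of all probe sets with that ending 5.71% were called between SB10 and SB62, against 2.44% of those with no such ending.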
